A study of Mus musculus with 13 samples.

Results

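The genes of MHC class II antigen presentation were examined in bulk RNA of 10 MP ovarian tumors and 3 wild-type (WT) mouse ovaries. The 7 genes (H2-Aa, H2-Ab1, H2-Eb1, Cd74, H2-DMa, H2-DMb1 and Ciita) were chosen by name out of 53465 genes in the table. All 7 reached at least 1 TPM in at least 3 libraries, a filter that 17277 genes passed. TPM, an abundance scaled by gene length, is a level that sums to the same total in every library.

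All animals were female C57BL/6 mice, and the labels give the same age, 8 to 12 wk at surgery, for both groups. Tumors were collected later than that, and ages at collection are not given here. The MP tumors are EPO-GEMM tumors of genotype Myc;p53-/-, made by injecting plasmids into the left ovary and applying electrical pulses. A vector with Cas9 and a guide RNA against Trp53 was given together with a Sleeping Beauty transposon that expresses MYC. The tumors were taken at the end point and extracted whole, and the comparison tissue was ovary of genotype WT. Both groups are labelled as not treated. RNA was selected by its polyA tail and read from 1 end at 76 bp. The project number in the labels takes 3 values. The WT ovaries share theirs with MP tumors 1, 2 and 3, MP tumors 4, 5 and 6 share another, and MP tumors 7, 8, 9 and 10 share the last, so condition can be compared within a project only for the first.

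The WT libraries were deeper than every tumor library, with 31445004 to 64013840 reads against 3892690 to 19906507. For a gene with 1 kb of exons, 1 read came to 0.0513 TPM in WT ovary 3, the deepest library, and to 0.790 TPM in MP tumor 5, the shallowest. In MP tumor 2 the 10 most abundant genes took 55.1% of all TPM, compared with at most 20.6% elsewhere. Trp53 RNA stood at 80.7 to 85.4 TPM in WT ovaries, at 4.30 to 26.0 TPM in MP tumors 1 to 9 and at 187 TPM in MP tumor 10. Small insertions and deletions need not lower an RNA, so this level checks the label of a tumor only in part. Summed theca and luteal markers reached 26851 to 31920 TPM in WT ovaries and 8.93 to 824 TPM in tumors. Summed epithelial markers (Epcam, Cdh1 and 4 keratins) ranged from 237 to 267 TPM in WT ovaries and from 5.67 to 1152 TPM in tumors, and 8 of 10 tumors lay below every WT ovary.

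MHC class II molecules present peptides from the endosome to CD4+ T cells. Each is an α chain paired with a β chain, held ready by the invariant chain Cd74 until H2-DM exchanges the last fragment of Cd74 for a peptide. B cells, dendritic cells and macrophages make them constantly, and many other cells make them under interferon gamma. Ciita is the coactivator that switches the genes on, acting on RFX, CREB and NF-Y proteins bound to the conserved X and Y boxes of their promoters.

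The genes of the α and β chains and of H2-DM lie together on mouse chromosome 17. In GRCm38, as given in the table, H2-Ab1 spans chr17:34263209-34269418 on the plus strand, H2-Aa spans chr17:34282744-34287827 on the minus strand and H2-Eb1 spans chr17:34305877-34316199 on the plus strand. H2-DMa (chr17:34135182-34139101) and H2-DMb1 (chr17:34153072-34160230) are on the plus strand. Ciita lies apart, at chr16:10488178-10527564 on the plus strand. All are protein-coding genes.

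The lines below show promoter stretches of class II region genes that hold the letters of both boxes and lie upstream of the gene span of the table. A core of the X box (GNAAC) followed after 20 to 36 bases by the Y box core (ATTGG) was searched on both strands of RefSeq promoter windows of GRCm38.p6, which run from 250 bases before to 50 bases after each start. Lines are written 5′ to 3′ on the strand of the gene, and capitals mark the X core and then the Y core. H2-Aa is at chr17:34287847-34287924 (minus strand), H2-Eb1 at chr17:34305756-34305832, H2-Eb2 at chr17:34325523-34325599 and H2-Ob at chr17:34238798-34238872 (plus strand).
H2-Aa: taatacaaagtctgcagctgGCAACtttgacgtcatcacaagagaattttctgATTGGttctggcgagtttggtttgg
H2-Eb1: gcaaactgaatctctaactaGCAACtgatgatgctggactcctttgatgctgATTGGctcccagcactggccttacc
H2-Eb2: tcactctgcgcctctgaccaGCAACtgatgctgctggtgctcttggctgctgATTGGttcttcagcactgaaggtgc
H2-Ob: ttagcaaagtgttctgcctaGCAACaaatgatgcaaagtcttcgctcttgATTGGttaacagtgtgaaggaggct

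Of the 7 genes, 4 had a window in the RefSeq promoter table, and 3 of those 4 (H2-Aa, H2-Eb1 and H2-DMb1) held the pair. The gap between the cores was 28 bases in H2-Aa, 27 in H2-Eb1 and 28 in H2-DMb1, and the X core began 81, 91 and 94 bases before the start. Neither of the 2 windows listed for H2-DMa held it, and both lay ahead of the span that the table gives for that gene. Windows for H2-Ab1, Cd74 and Ciita were not analysed here. Of the other class II region genes with a window, 3 of 4 held the pair (H2-Eb2, H2-Oa and H2-Ob), compared with 1 of 11 genes of class I presentation. Over all 32851 windows 2.85% held the pair, 84.8% held the X core and 37.4% held the Y core. The match describes letters in a window and was not tested as a binding site.

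**Figure D1:**
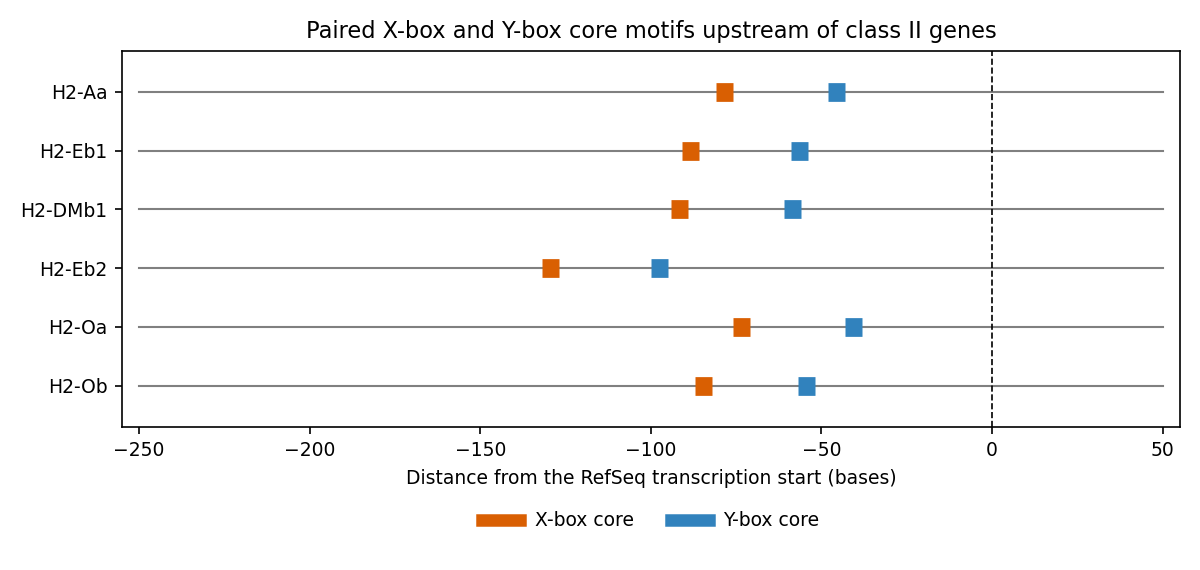
Position of the paired X and Y cores in the promoter windows of 6 class II region genes, with distance from the RefSeq transcription start in bases on the horizontal axis. Orange blocks mark the X core and blue blocks the Y core, and grey lines show the window. In 5 of the 6 genes the X core begins between 76 and 94 bases before the start, and in H2-Eb2 it begins 132 bases before it.

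The chain genes H2-Aa, H2-Ab1 and H2-Eb1 were abundant and even in WT ovaries and spread over a wide range in MP tumors. H2-Aa, the α chain of the I-A molecule, stood at 232, 257 and 194 TPM in WT ovaries 1, 2 and 3. In tumors H2-Aa ran from 1.98 TPM in MP tumor 7 through a median of 29.8 to 279 TPM in MP tumor 5. That tumor alone was above the WT ovaries and 9 of 10 were below them, so the ranges overlapped by 1 tumor.

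H2-Ab1, the β chain that pairs with H2-Aa, was at 189.6, 221 and 160.3 TPM in the WT ovaries. Its level in tumors ran from 5.42 TPM (MP tumor 6) to 402 TPM (MP tumor 5) with a median of 39.2 TPM. MP tumors 5 and 10 exceeded every WT ovary, and the other 8 tumors lay below. H2-Eb1, the β chain of the I-E molecule, was at 259, 323 and 221 TPM in WT ovaries, and its tumors ran from 2.09 TPM (MP tumor 7) to 528 TPM (MP tumor 5) with a median of 42.8 TPM. MP tumors 5 and 10 were again the ones above the WT ovaries. C57BL/6 mice lack a working gene for the matching I-E α chain, and that pseudogene, H2-Ea-ps, had 0 reads in all 13 libraries.

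Cd74 was the most abundant of the 7 in every WT ovary, at 503, 554 and 426 TPM. Among the genes with reads in every tumor, which leaves out Ciita, Cd74 also had the widest range. It ran from 3.06 TPM in MP tumor 2 (24 reads) to 1409 TPM in MP tumor 5, with a median of 63.5 TPM. The ratio between the highest and the lowest tumor was 459.9. MP tumors 5 and 10 (728 TPM) were above all WT ovaries and 8 tumors were below. The 3 tumors that share the project of the WT ovaries had 98.2, 3.06 and 4.04 TPM.

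The peptide exchange genes were less abundant per length, and the groups overlapped more. H2-DMa was at 19.2, 16.6 and 19.7 TPM in WT ovaries and from 1.74 TPM (MP tumor 3) to 74.2 TPM (MP tumor 5) in tumors, with a median of 11.04 TPM. In 3 tumors H2-DMa was above the WT ovaries, in 6 it was below, and MP tumor 1 fell between them. H2-DMb1, the β chain of H2-DM, was at 21.6, 23.4 and 23.2 TPM in WT ovaries and from 1.20 TPM (MP tumor 6) to 93.2 TPM (MP tumor 5) in tumors, with a median of 9.84 TPM. MP tumors 1, 4, 5 and 10 were above the WT ovaries and the other 6 tumors were below. H2-DMb1 has a near-identical neighbor, H2-DMb2, so reads of the pair may have been split by the counting. H2-DMb2 itself stood at 0.990 to 1.52 TPM in WT ovaries and at no more than 0.440 TPM in any tumor.

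Ciita was the least abundant of the 7, at 2.45, 2.40 and 2.09 TPM in WT ovaries. Ciita had 0 reads in MP tumors 3 and 6, which allows up to 3 reads, and reached 9.48 TPM in MP tumor 5 and 19.7 TPM in MP tumor 10. In 7 tumors Ciita was below the WT ovaries and in 3 (MP tumors 4, 5 and 10) it was above. Part of Ciita overlaps Dexi on the other strand over 329 exonic bases. Dexi reached 21.4 TPM in WT ovaries and 32.8 TPM in tumors, and whether the counting used strand is not given in the sources used here.

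Over the tumors the 7 genes kept nearly the same order. MP tumors 5 and 10 took the first and second place for all 7 genes, and MP tumors 1, 4 and 9 took places 3 to 5 for all 7. MP tumors 2, 3, 6, 7 and 8 took places 6 to 10. In 6 tumors (MP tumors 2, 3, 6, 7, 8 and 9) all 7 genes were below every WT ovary, and in MP tumor 5 all 7 were above. Over the 10 tumors the Pearson correlation of log2(TPM + 1) between pairs of the 7 genes ranged from 0.82 to 0.99 over the 21 pairs, which share libraries and depth. MP tumors 4, 5 and 10, which are among the 4 highest for H2-Ab1, had the fewest reads in all (3892690 to 5464497), and the part of depth in this order was not tested. The lowest tumors rest on few reads of these genes. MP tumor 7 had 9 reads of H2-Aa and 6 of H2-Eb1, and MP tumor 6 had 5 reads of H2-DMb1.

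**Figure D2:**
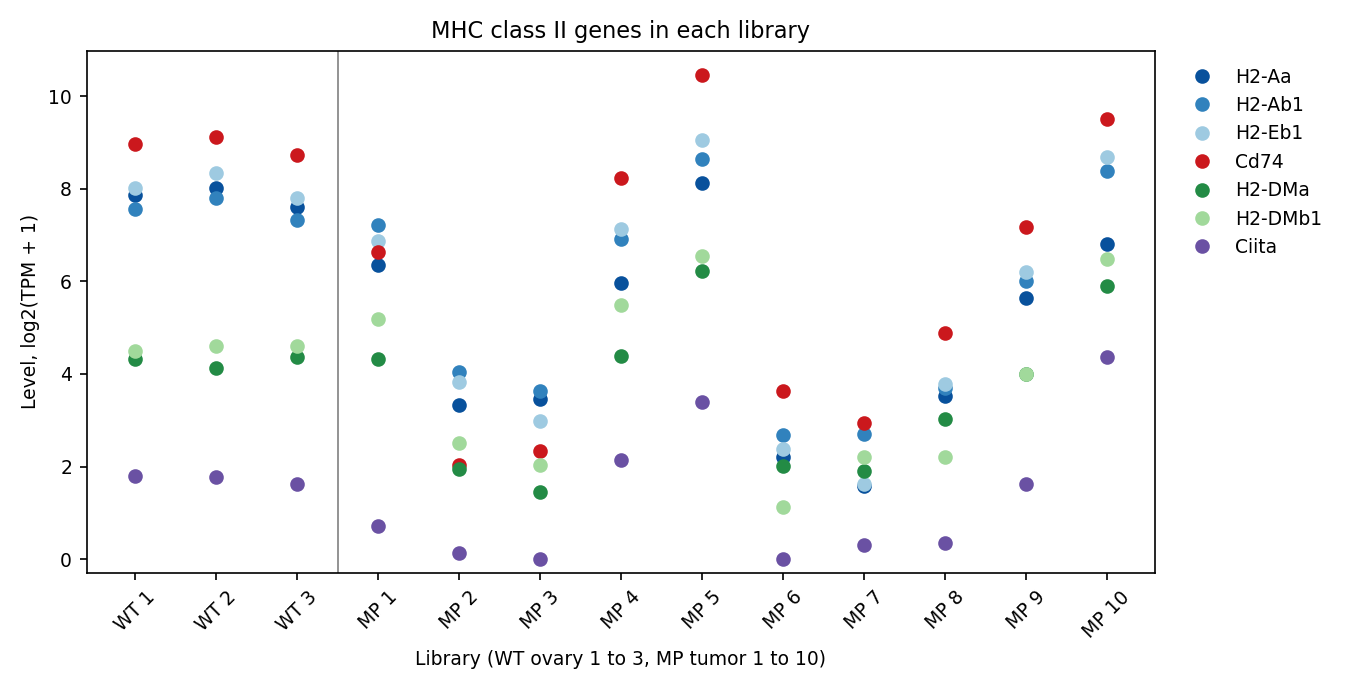
Level of each of the 7 genes as log2(TPM + 1), vertical axis, in each library on the horizontal axis, with 3 WT ovaries left of the grey line and 10 MP tumors right of it. Each point is 1 gene in 1 library. The WT ovaries lie close together, MP tumors 5 and 10 lie highest among tumors, and Cd74 falls below H2-Ab1 in MP tumors 1, 2 and 3 alone.

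Whether the tumors as a group differed from the ovaries was tested with limma on log2(TPM + 1) over all 17277 genes. None of the 7 class II genes passed the Benjamini-Hochberg threshold of 0.05, while 16.8% of all genes did (14.3% lower and 2.51% higher in MP tumors). At an unadjusted P under 0.05 limma gave 1 of the 7 genes, H2-Aa, beside 5707 of all 17277 genes. The log2 fold change of H2-Aa was -3.13 (SE 1.13, limma adjusted P = 0.0687). Cd74 gave -3.16 (SE 1.57, limma adjusted P = 0.171), H2-Eb1 gave -2.80 (SE 1.38, limma adjusted P = 0.168) and H2-Ab1 gave -2.17 (SE 1.20, limma adjusted P = 0.214). H2-DMb1 at -0.79, H2-DMa at -0.76 and Ciita at -0.42 had limma adjusted P values of 0.612, 0.567 and 0.733. Fold changes on this scale understate the change of genes with low TPM, Ciita above all.

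The median of all tested genes was itself -0.58, and 69.9% of them had a negative log2 fold change. How many of all genes lay below every WT ovary in all tumors was not counted, so such counts have no background here. After median-of-ratios scaling that median was -0.02, and the calls split into 1274 higher and 1897 lower genes (40.2% higher) in place of 433 and 2463 (14.95% higher). Relative to the median of all genes, H2-Aa lay between -2.85 and -2.40 over the scalings tried, Cd74 between -2.92 and -2.46, H2-Eb1 between -2.51 and -2.07 and H2-Ab1 between -1.89 and -1.44. H2-DMa (-0.24 to 0.10), H2-DMb1 (-0.33 to 0.04) and Ciita (-1.27 to 0.15) took either sign by this measure, so no direction is given for these 3 genes. TPM times length was a whole number of reads, within 0.01, for 100% of the values, and limma-voom on those reads called 1 of the 7 genes (H2-Aa, -2.64, adjusted P = 0.031) and 3 at an unadjusted P under 0.05. It called 33.4% of all genes, and 7816 of 17277 had an unadjusted P under 0.05.

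With 1 library left out, the log2 fold change of H2-Aa ran from -3.51 to -2.78, the last without MP tumor 7 (limma adjusted P = 0.0846). Without MP tumor 5 the log2 fold change of H2-Aa was -3.51 (limma adjusted P = 0.0223), and without MP tumor 10 it was -3.36 (limma adjusted P = 0.0479). The other 6 genes did not pass in either case, while 21.3% and 19.9% of all genes did. Within the project of the WT ovaries (3 MP tumors against 3 WT ovaries) 5 of the 7 genes were lower by limma, but so were 57.3% of all genes, and the median of all genes was -1.19. There Cd74 was at -5.28 (SE 1.13, limma adjusted P = 0.00451), H2-Eb1 at -3.49, H2-Aa at -3.44, H2-Ab1 at -2.60 and Ciita at -1.44, while H2-DMa at -1.71 (adjusted P = 0.0619) and H2-DMb1 at -1.33 (adjusted P = 0.162) did not pass in limma. With project as a covariate over all libraries, 1 of the 7 genes was called by limma (Cd74, -5.28, adjusted P = 0.0198), beside 54.6% of all genes. The fold changes of that fit come from the same 3 tumors and 3 ovaries. They equal those within the project and are no separate estimate. Condition and project cannot be told apart for the other 7 tumors.

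**Figure D3:**
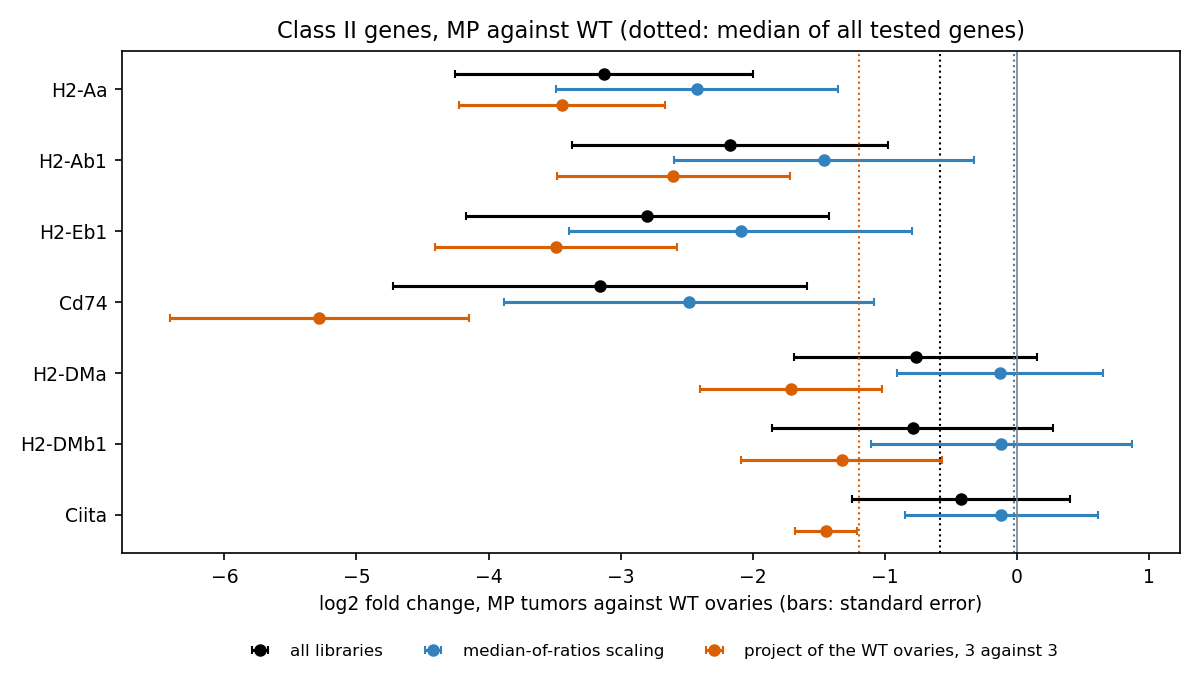
Log2 fold change of each of the 7 genes, MP tumors against WT ovaries, on the horizontal axis, with bars of 1 standard error. Black points use all libraries, blue points the same after median-of-ratios scaling, and orange points the 3 MP tumors and 3 WT ovaries of 1 project; the dotted line of each color is the median of all tested genes (-0.58, -0.02 and -1.19). H2-Aa, H2-Ab1, H2-Eb1 and Cd74 lie left of each dotted line, and H2-DMa and H2-DMb1 lie near it in the fits of all libraries.

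Ratios between genes of 1 library do not depend on scaling between libraries, except through the pseudocount, and they showed that the 7 genes did not change in proportion. H2-Aa over H2-Ab1, the α chain over its own β chain, was 1.16 to 1.23 in WT ovaries and 0.331 to 0.881 in tumors, below every WT ovary in 10 of 10 tumors. The mean log2 ratio of (TPM + 1) differed by -0.96, tumors minus ovaries (exact permutation test, 2-sided, P = 0.00699, adjusted P = 0.035 over 10 ratios). H2-Eb1 over H2-Ab1 was also lower in 10 of 10 tumors, at 0.377 to 1.31 against 1.37 to 1.46, with a mean log2 difference of -0.63 that did not pass (exact permutation P = 0.035, adjusted P = 0.0769). Over all 17276 other genes, a ratio to H2-Ab1 below every WT ovary in every tumor was seen in 0.208% and 1 above in 1.97%. These shares are no matched background for the class II ratios. H2-Ab1 ranged 74.2-fold over the tumors, and a gene that does not follow it can hardly keep its ratio on 1 side. The rest of the 7 genes followed H2-Ab1 over the 10 tumors (Pearson r of 0.87 to 0.99). Separations among genes that follow H2-Ab1 as closely were not counted.

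Both H2-DM genes moved the other way against H2-Ab1. H2-DMb1 over H2-Ab1 was 0.106 to 0.145 in WT ovaries and 0.220 to 0.651 in tumors, higher in 10 of 10, with a mean log2 difference of 1.39 (exact permutation P = 0.0035, the smallest that the splits of 13 libraries can give, adjusted P = 0.035). H2-DMa over H2-Ab1 was 0.0751 to 0.123 in WT ovaries and 0.129 to 0.599 in tumors, also higher in 10 of 10, with a difference of 1.41 (exact permutation P = 0.0105, adjusted P = 0.035).

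These calls have limits. With a pseudocount of 0.1 TPM the adjusted exact permutation P became 0.0524 for H2-Aa and 0.0583 for H2-DMa, while H2-DMb1 stayed at 0.035. Leaving out MP tumor 6, 7 or 8 ended the call of H2-DMa (adjusted exact permutation P = 0.106, 0.0795 and 0.102). Leaving out WT ovary 1, 2 or 3 ended all 3 calls, since 2 ovaries against 10 tumors gave an adjusted exact permutation P of 0.152 to 0.182. Within the project of the WT ovaries the differences were -0.84 for H2-Aa, 1.28 for H2-DMb1 and 0.89 for H2-DMa, where 3 against 3 cannot reach the threshold (adjusted exact permutation P = 0.143).

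Cd74 over H2-Ab1 was lower in MP tumors 1, 2 and 3 than in any other library. The ratio was 2.51 to 2.66 in WT ovaries, 0.198 to 0.665 in MP tumors 1, 2 and 3, 2.09 to 3.50 in MP tumors 4, 5 and 6 and 1.21 to 2.40 in MP tumors 7 to 10. Over all tumors the mean log2 difference of -0.99 did not pass (exact permutation P = 0.206, adjusted P = 0.344). Ciita over H2-Ab1 was 0.0108 to 0.0130 in WT ovaries. In tumors it ranged from 0, in the 2 tumors with no Ciita reads, to 0.0587 in MP tumor 10, and the log2 difference of 1.75 did not pass (exact permutation P = 0.0385, adjusted P = 0.0769). Without MP tumor 1 it was 2.02 (adjusted exact permutation P = 0.0227). That ratio rests on the pseudocount, because Ciita was below 1 TPM in 6 tumors.

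**Figure D4:**
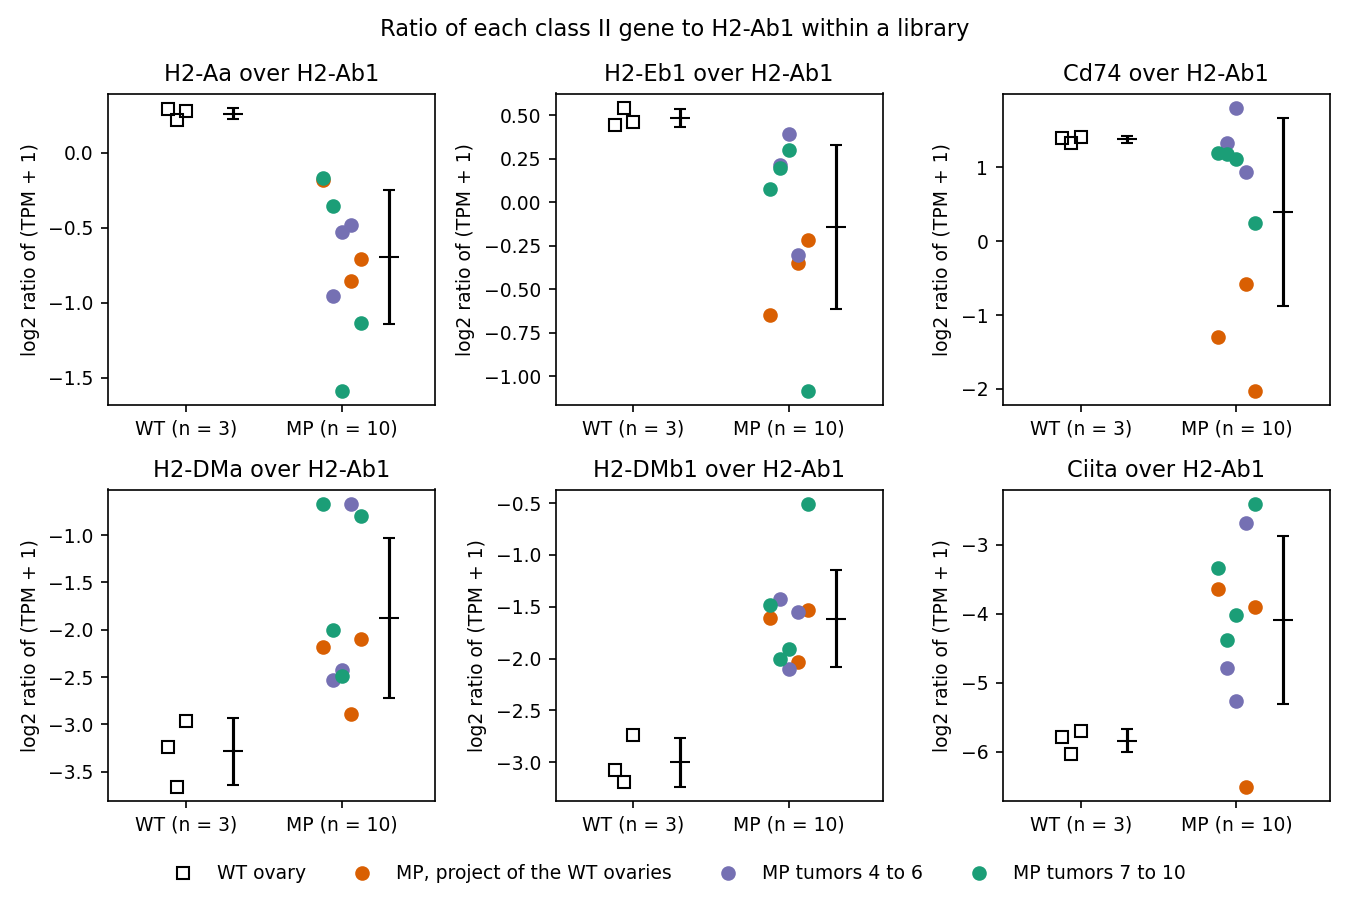
Log2 ratio of (TPM + 1) of each of the other 6 genes to H2-Ab1 within a library, vertical axis, for 3 WT ovaries (open squares) and 10 MP tumors (circles, colored by project); bars show mean and SD. H2-Aa and H2-Eb1 lie below the WT ovaries in all 10 tumors, H2-DMa and H2-DMb1 lie above them in all 10, and Cd74 is lowest in MP tumors 1, 2 and 3.

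The other genes of the class II region were scarce. H2-Oa, a chain of the H2-DM inhibitor H2-O, stood at 1.21 to 1.98 TPM in WT ovaries and at 0 to 0.602 TPM in tumors. It reached 1 TPM in the 3 WT ovaries and in 0 tumors, so it passed the filter only through the group where it is high, and its log2 fold change of -1.22 (SE 0.22, limma adjusted P = 0.00149) could take no other direction. H2-Oa overlaps another gene (BC051537) on the other strand. H2-Ob, its partner chain, ran from 0.732 to 0.861 TPM in WT ovaries and up to 0.545 TPM in tumors, below the filter. H2-Eb2, a further β chain, was no higher than 1.43 TPM anywhere and was not tested.

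Of 35 genes of the class II pathway outside the 7 genes, 30 were tested with limma, and 9 were lower and 1 was higher, beside 14.3% and 2.51% of all genes. Without H2-Oa 8 of 29 were lower. Over all genes, 8.36% of those tested passed the filter only with the WT ovaries. The median log2 fold change was -1.09, compared with -0.58 for all genes. With 1 library left out, 3 to 12 of the pathway genes were lower and 0 to 1 higher, the fewest without a WT ovary. Every gene called in these lists kept its sign under the 3 other scalings tried. None of the 7 proteins that bind class II promoters passed at the level of RNA in limma or limma-voom, and 1 had an unadjusted P under 0.05 in each (Rfxank in limma, another gene in limma-voom). Of the most abundant, Rfxap, a subunit of RFX, was at 26.4 ± 1.00 TPM in WT ovaries (SD, n = 3) and 34.1 ± 19.2 TPM in tumors (SD, n = 10). Nfya, a subunit of NF-Y, was at 40.6 ± 5.43 and 29.8 ± 19.6 TPM.

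In the interferon gamma pathway 4 of 8 tested genes fell and 0 rose by limma. Jak1, a kinase of the receptor, fell by 3.11 on the log2 scale (SE 0.77, limma adjusted P = 0.0123), and the receptor chain Ifngr1 fell by 1.47 (SE 0.37, limma adjusted P = 0.0128). Jak2, another kinase of the pathway, fell by 2.30 (limma adjusted P = 0.04). Jak1, Ifngr1 and Jak2 were below every WT ovary in 10 of 10 tumors, and the share of all genes that did so was not counted. After median-of-ratios scaling Jak1 (limma adjusted P = 0.0121) and Jak2 (0.0446) still passed, and Ifngr1 (0.099) did not. Ifng itself, the ligand, did not exceed 0.156 TPM in WT ovaries or 0.291 TPM in tumors and was not tested.

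The list of endosomal genes held 8 enzymes that prepare peptides and Cst3, an inhibitor of cysteine proteases. Of these 9 genes 4 were lower, 1 was higher and 4, Cst3 among them, did not pass in limma. Lgmn, the asparagine endopeptidase, stood at 755 to 1652 TPM in WT ovaries and at 81.3 to 381 TPM in tumors, below every WT ovary in 10 of 10. It fell by 2.42 on the log2 scale (SE 0.39, limma adjusted P = 0.0005). Ctsl fell by 2.21 (limma adjusted P = 0.00275), Ctss, the protease that trims Cd74 in antigen-presenting cells, fell by 2.33 (limma adjusted P = 0.0122), and Ctsd was the fourth that fell, though not after median-of-ratios scaling (limma adjusted P = 0.602). Ifi30, the thiol reductase that opens disulfide bonds of antigens, rose by 1.67 (SE 0.48, limma adjusted P = 0.0268). Its level was 96.9 to 156 TPM in WT ovaries and 144 to 742 TPM in tumors, above every WT ovary in 8 of 10. The call of Ifi30 was lost within the project of the WT ovaries (1.34, limma adjusted P = 0.0621), with project as a covariate (limma adjusted P = 0.0506) and without WT ovary 1, 2 or 3 (limma adjusted P = 0.0981, 0.14 and 0.077).

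Of 5 genes of surface turnover and costimulation none passed in limma (March8, a ligase that removes class II from the surface, -1.54, adjusted P = 0.0577; Cd86, -0.82, adjusted P = 0.134). These 2 had an unadjusted limma P under 0.05, and limma-voom called 1 of the 5 genes lower (March8). Limma also called 1 of the 5 lower after median-of-ratios scaling and 1 after quantile normalization.

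In the same libraries class I presentation gave 6 lower and 0 higher genes of 13 by limma, beside 14.3% and 2.51% of all genes. The median log2 fold change of the 13 genes was -1.46, beside -0.58 for all genes. H2-K1, a class I heavy chain, was at 375 to 512 TPM in WT ovaries and at 16.4 to 239 TPM in tumors, below every WT ovary in 10 of 10, and fell by 2.57 (SE 0.73, limma adjusted P = 0.0255). Pdia3, H2-D1 and Erap1 were the others with the smallest adjusted P values (limma adjusted P = 0.0212, 0.0267 and 0.0282), and B2m fell by 1.93 (limma adjusted P = 0.048). Pdia3 did not pass after median-of-ratios scaling (limma adjusted P = 0.432). With any WT ovary left out, limma called 0 of the 13 genes, while limma-voom on all libraries called 6 lower. Limma-voom called 33.4% of all genes in either direction. Although H2-K1 fell and H2-Ab1 did not pass, the difference between them did not pass either. H2-Ab1 over H2-K1 was 0.313 to 0.590 in WT ovaries and 0.1097 to 3.37 in tumors (log2 difference 0.40, exact permutation P = 0.689, adjusted P = 0.861). The same held for H2-Ab1 over B2m (-0.24, exact permutation P = 0.850, adjusted P = 0.944).

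The summed markers of the cells that make class II were below every WT ovary in 8 or 9 of 10 tumors for each cell type, while most of the single genes did not pass the test. This was not particular to leukocytes. Summed endothelial, granulosa, and theca and luteal markers were below every WT ovary in 10 of 10 tumors, and fibroblast and epithelial markers in 8 of 10. In bulk RNA, fewer cells of a type and less RNA per cell cannot be told apart. Summed pan-leukocyte markers reached 102 to 199 TPM in WT ovaries and 36.5 to 164 TPM in tumors, below every WT ovary in 8 of 10, and 0 of 5 genes passed in limma or limma-voom (2 and 1 at an unadjusted P under 0.05). Summed macrophage markers stood at 769.7 to 1089 TPM in WT ovaries and at 226 to 1089 TPM in tumors, with a median of 530.3 TPM, and 9 of 10 tumors were below every WT ovary. Of the 10 macrophage genes 1 was lower in limma (Cx3cr1) and 2 in limma-voom, and 7 and 3 had an unadjusted P under 0.05. Their median log2 fold change was -1.03, beside -0.58 for all genes. Of all 17277 tested genes, 2463 were lower in limma and 3042 in limma-voom, and 5707 and 7816 had an unadjusted P under 0.05. Dendritic cell markers summed to 37.1 to 53.5 TPM in WT ovaries and 5.26 to 39.5 TPM in tumors, below every WT ovary in 9 of 10, and 3 of 8 tested genes were lower (Clec9a, Cd209a and Itgax). Clec9a and Cd209a reached 1 TPM in 2 and 1 tumors and passed the filter only with the WT ovaries, which leaves 1 of 6 lower. Flt3, a cytokine receptor of dendritic cells, and Ccr7, a chemokine receptor, were above every WT ovary in 8 of 10 tumors, at log2 fold changes of 1.03 and 0.80 that did not pass in limma (adjusted P = 0.201 and 0.229) and did in limma-voom (2.66 and 2.19, adjusted P = 0.027 and 0.0454). Of the 10 dendritic cell markers 4 were at 0 in at least 1 tumor, and none was at 0 in all.

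B cell and T cell markers were low in both groups. The 8 B cell markers summed to 6.56 to 7.15 TPM in WT ovaries and 0.399 to 6.70 TPM in tumors, with 9 of 10 tumors below every WT ovary. Each B cell marker was at 0 in at least 1 tumor, and 0 of 2 tested genes passed in limma or limma-voom (1 and 0 at an unadjusted P under 0.05). The 8 T cell markers summed to 13.9 to 18.7 TPM in WT ovaries and 1.34 to 19.1 TPM in tumors, again with 9 of 10 tumors below, and 5 were at 0 in at least 1 tumor. Of the 4 tested, Cd3d and Cd3g reached 1 TPM in no tumor and were tested only through the WT ovaries, so their calls as lower (Cd3d not after median-of-ratios scaling) could take no other direction, and 0 of the other 2 were lower. The highest sum, in MP tumor 10, was mostly Lck (15.6 TPM), and the defining genes Cd3d, Cd3e and Cd3g were below every WT ovary in 10 of 10 tumors. The part of these cells in the class II levels was not tested.

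H2-Ab1 was set against each marker sum over the 10 tumors. With pan-leukocyte, macrophage and dendritic cell sums the Pearson r was 0.30, 0.32 and 0.27 (Spearman rho 0.25, 0.27 and 0.04; permutation test, adjusted P = 0.45 for each r over 5 lists). With B cell markers r was 0.84 (permutation P = 0.00472, adjusted P = 0.0236) and rho 0.78 (permutation P = 0.0108, adjusted P = 0.0542). Without the 2 tumors farthest from the median marker sum (MP tumors 2 and 6) r was 0.83 over the other 8 (permutation P = 0.014, adjusted P = 0.0699). With T cell markers r was 0.75 (permutation P = 0.0153, adjusted P = 0.0384) and rho 0.67 (permutation P = 0.038, adjusted P = 0.095). Without MP tumors 5 and 10 it was 0.49 (permutation P = 0.227), so the relation with T cell markers rests on those 2 tumors, and in MP tumor 10 on Lck. The 8 B cell markers together held 3 to 44 reads per tumor, with 14 in MP tumor 5, 15 in MP tumor 4 and 21 in MP tumor 10, the shallowest libraries, where 1 read is worth the most TPM. The part of depth in these correlations was not tested. Pooled within projects, with values centred on their project, r was 0.90 with B cell and 0.87 with T cell markers (exact permutation test within projects, adjusted P = 0.0231 for both) and 0.23 to 0.36 with the other lists (adjusted P = 0.647 to 0.69), and rho was 0.77 and 0.81 with B cell and T cell markers (adjusted exact permutation P = 0.119 for both). A single project held 3 or 4 tumors, too few for an r of its own.

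**Figure D5:**
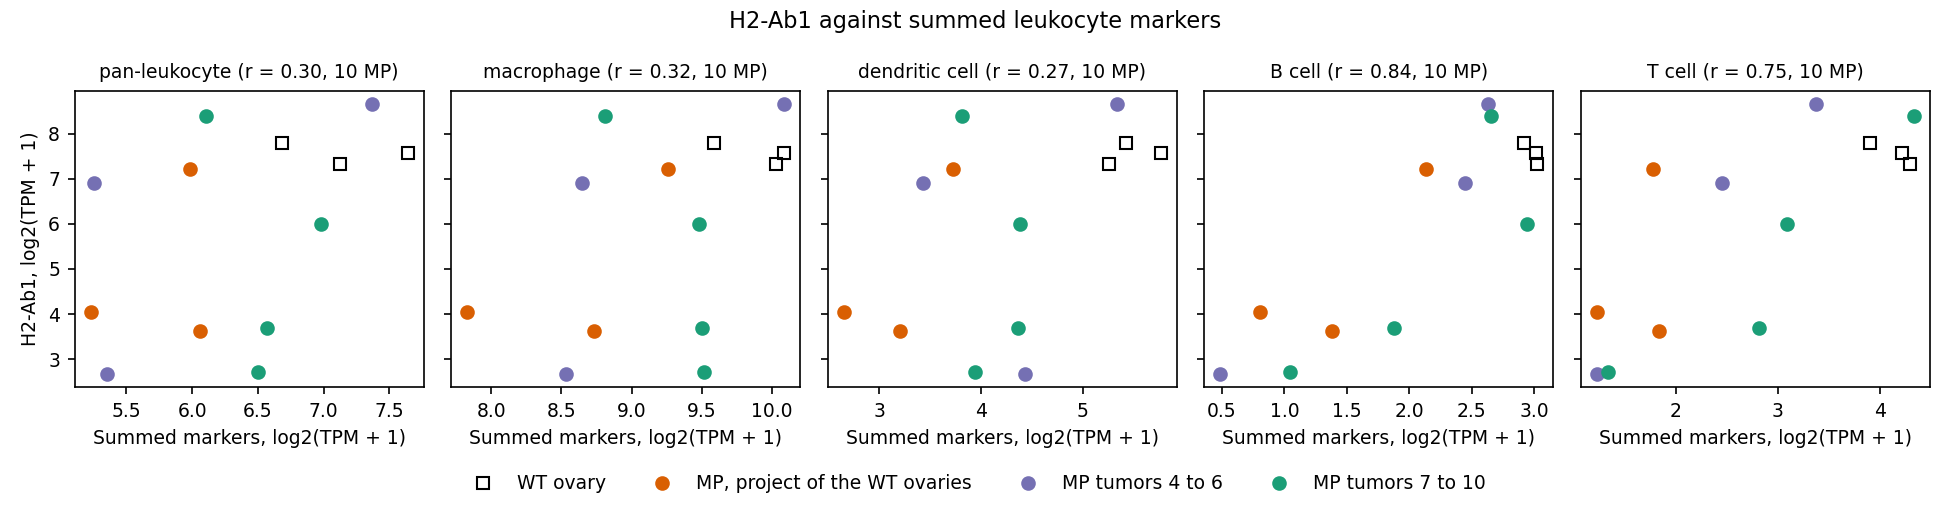
H2-Ab1 as log2(TPM + 1), vertical axis, against the summed TPM of 5 marker lists as log2(sum + 1), horizontal axes, in 10 MP tumors (circles, colored by project) and 3 WT ovaries (open squares). Pearson r over the 10 tumors stands above each panel, from 0.27 for dendritic cell to 0.84 for B cell markers. Tumors with like macrophage sums differ widely in H2-Ab1.

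H2-Ab1 over Csf1r, the receptor that marks macrophages, was 4.31 to 6.10 in WT ovaries, and ran from 0.534 in MP tumor 7 to 45.4 in MP tumor 1. Of the tumors, 6 lay above and 4 below all WT ovaries, and the log2 difference of -0.08 did not pass (exact permutation P = 0.962). This ratio depends on the marker, because Csf1r itself ranged 71.3-fold over the tumors, the most of the 10 macrophage markers, and C1qb 3.07-fold. MP tumors 1, 2 and 3, where Csf1r stood at 3.25, 0.774 and 0.957 TPM, were all above the WT ovaries over Csf1r, at 11.9 to 45.4, and within the project of the WT ovaries the difference was 1.37 (adjusted exact permutation P = 0.143, where 3 against 3 cannot reach the threshold). Over Adgre1, another macrophage marker, H2-Ab1 was 5.61 to 8.43 in WT ovaries, 12.7 in MP tumor 1, 2.09 in MP tumor 2 and 1.21 in MP tumor 3. Over the sum of the 10 markers it was 0.153 to 0.287 in WT ovaries and 0.241, 0.0686 and 0.0270 in those tumors, so MP tumors 2 and 3 lay below. Of the ratios to the 10 single markers, 7 were below every WT ovary in MP tumor 2 and 8 in MP tumor 3, and 2 were above in each. In MP tumor 10 all 10 ratios were above every WT ovary, and in MP tumors 6 and 7 all 10 were below. These ratios to other markers were not tested. The ratio to Ptprc, present on all leukocytes, was 41.0 to 74.7 in WT ovaries and 4.47 to 203 in tumors (log2 difference -1.27, exact permutation P = 0.315, adjusted P = 0.45).

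The genes whose levels over the 10 tumors were most like the 7 genes were ranked by Pearson r with the mean z-score of the 7 genes, among 17186 genes, as a description with no test. The first 10 had r from 0.92 to 0.97. They were Dok2, an adaptor protein of blood cells, Clec10a, a lectin of macrophages and dendritic cells that is also among the dendritic cell markers, Gm17334, Adam5, Folr2, a folate receptor of macrophages, Tac2, Serinc2, Trim21, a cytosolic antibody receptor, Erbb3, a receptor of the EGF receptor family, and Gm35189. Dok2 ran from 1.10 TPM (MP tumor 6) to 8.72 TPM (MP tumor 5), and Clec10a from 0.123 to 3.55 TPM. Erbb3 reached 22.6 TPM in MP tumor 5 and 18.6 TPM in MP tumor 10, and was at 0.228 TPM in MP tumor 3. Adam5 had at most 1 read in any tumor, Gm17334 at most 3 and Tac2 at most 4, so their places rest on single reads, whose worth in TPM is set by the depth of the library. Adam5 passed the filter only through the WT ovaries, with at most 0.253 TPM in tumors. Clec10a had 1 read in MP tumors 6 and 7, and Serinc2 had 0 in MP tumors 2 and 6. Gm35189 had 1 in MP tumors 3, 6 and 7. Folr2 had 3 to 24 reads per tumor, with 5 in MP tumor 5 (2.56 TPM) and 24 in MP tumor 1 (2.16 TPM). Its r was 0.70 after median-of-ratios scaling. Irf1, an interferon-induced factor, came at place 36 with r = 0.88, and Csf1r at place 2495 with r = 0.60.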

How the data were processed

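Bulk polyA RNA-seq of 10 MP tumors and 3 WT ovaries was compared. The authors deposited 1 table of TPM values, with a gene length and position, for 13 libraries; replicates were not pooled. The submitters' processing notes name FastQC 0.11.5, Trimmomatic 0.36, STAR 2.5.3a, featureCounts 1.6.3 and mm10/GRCm38, whereas the extraction text of the labels names a human build, HTSeq and RPKM; the table holds mouse genes. Columns were matched to samples by the description in the labels, with 0 unused columns. Groups follow the labelled genotype.

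Levels were tested as log2(TPM + 1), in genes reaching 1 TPM in 3 or more libraries, by limma 3.58.1 (trend, robust) in R 4.3.3, with Benjamini-Hochberg adjustment over all tested genes at 0.05. TPM sums to a fixed total, so a gene falls when others rise. Reads were recovered as whole steps of TPM times length. Ratios were tested by exact permutation over all choices of 3 among 13 libraries and correlations by 100000 permutations (within projects, all 864) with scipy 1.17.1. Replicates of a group differed by more than counting noise (chi-square per degree of freedom of 25.8 to 93.6 among WT ovaries and 46.1 to 591 among MP tumors). That libraries come from separate animals follows from the labelled titles alone, so P values measure the spread between these libraries.

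The 7 genes and the lists were chosen with earlier results of these data known. Named genes are the 7 genes, Trp53, genes used in a ratio, of each list up to 4 genes past the threshold (the 2 most abundant where none passed) and the 10 genes most like the 7; others were named after their values were seen, and 1 gene that the rule names is not reported here. Promoter sequences are from RefSeq (GRCm38.p6). Alternatives varied the pseudocount, filter, scaling, model, project, replicate block and single libraries. Scripts were tested on simulated data.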

Additional observations from a re-analysis of the deposited data

Results flagged for a closer look

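Among 27 measures tested for a single library far from the rest of its group, 1 was marked, and chance marks about 1.35 of 27. The log2 ratio of (TPM + 1) of H2-DMb1 to H2-Ab1 was -0.505 in MP tumor 7, above the other 9 tumors. It rests on 13 reads of H2-DMb1 and 22 reads of H2-Ab1.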

How the results depend on the processing

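Low values are limited by depth, since the lowest tumors hold under 30 reads of H2-Aa and H2-Eb1, and only 3 ovaries set the WT spread. The log2 fold changes of H2-Aa, H2-Ab1, H2-Eb1 and Cd74, none past the threshold in limma without a covariate on all libraries, kept their negative sign under all alternatives run. H2-DMa, H2-DMb1 and Ciita turned to 0.18, 0.12 and 0.085 after quantile normalization, and Ciita to 0.013 without MP tumors 1 to 3, an alternative chosen after seeing the data. The cause was not tested.

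Genes higher in MP numbered 1274 after median-of-ratios scaling, 1904 after quantile normalization, 2729 with limma-voom on recovered reads, 1112 within the project of the WT ovaries, 894 with a project covariate and 808 without MP tumors 1 to 3. Genes lower numbered 9902 within that project and 8534 with the covariate. With 1 library left out the counts were 94 to 635 higher and 1158 to 3264 lower, both lowest when a WT ovary was left out. H2-Aa was -2.64 by limma-voom and, with H2-Ab1 (-2.60), H2-Eb1 (-3.49), Cd74 (-5.28) and Ciita (-1.44), was called within the project at -3.44; the covariate left Cd74 alone called, at -5.28. With 1 library left out H2-Aa ran from -3.51 to -2.78.

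Replicate numbers 1 to 3 occur in both groups, but deviations of libraries with the same number did not go together (r of -0.05, 0.02 and -0.04), and none of these 3 tumors correlated best with its own number. A replicate block on them gave 1087 higher and 9803 lower genes, and 6 of the 7 genes were called, at -3.44 (H2-Aa), -2.60 (H2-Ab1), -3.49 (H2-Eb1), -5.28 (Cd74), -1.71 (H2-DMa) and -1.44 (Ciita). No WT ovary has the number of another tumor, so the block also takes its fold changes from MP tumors 1 to 3 and the 3 ovaries. They equal those within the project of the WT ovaries and are no separate estimate. Since the numbers did not pair, no weight is put on these calls. Under the block 24 of 30 pathway genes, 10 of 13 class I genes and 48 of 59 cell type markers were lower, beside 9803 of all 17277 genes.

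Within the project of the WT ovaries, pathway genes gave 0 higher and 23 lower of 30 tested. Class I genes gave 11 lower of 13 and cell type markers 50 lower of 59, beside 57.3% of all genes. With the covariate these were 0, 23, 10 and 46, beside 54.6% of all genes called in either direction. Limma-voom gave 2 cell type markers as higher, both of dendritic cells (Flt3 and Ccr7). With 1 library left out, pathway genes ranged from 0 to 1 higher and 3 to 12 lower, class I genes from 0 to 7 lower and cell type markers from 15 to 34 lower. The pathway and class I minima came from leaving out a WT ovary.

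Of the ratios, H2-Aa over H2-Ab1 was -1.01 with a pseudocount of 0.1, -0.84 within the project and -1.01 without MP tumors 1 to 3, and no longer passed. H2-DMa over H2-Ab1 was 1.33, 0.89 and 1.63, also not past, and H2-DMb1 over H2-Ab1 was 1.28 within the project and 1.43 without those tumors, not past. With 1 library left out they ran from -1.01 to -0.86, from 1.22 to 1.57 and from 1.26 to 1.52, and Ciita over H2-Ab1 from 1.56 to 2.02. H2-Ab1 over Csf1r, near 0, turned to 0.12 with the pseudocount of 0.1, 1.37 within the project, and ran from -0.40 to 0.26 with 1 library left out; it was 0.06 without WT ovary 2 and 0.17, 0.26, 0.20 and 0.03 without MP tumors 6, 7, 8 and 9. H2-Ab1 over B2m turned to 0.65 within the project and to 0.05 and 0.057 without MP tumors 6 and 7 (range -0.46 to 0.057), and H2-Ab1 over H2-K1 to -0.079 without MP tumors 1 to 3.

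Without the 2 tumors farthest from the median marker sum, r of H2-Ab1 was -0.11 with pan-leukocyte, -0.11 with macrophage, -0.29 with dendritic cell, 0.83 with B cell and 0.49 with T cell markers, none past the threshold; pooled within projects, chosen after seeing the data, it changed no call. Of the 10 genes most like the 7, 6 were shared after median-of-ratios scaling and 4 when all 13 libraries were used.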

Other observations

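The make-up of the summed class II RNA differed between tumors. The 7 genes summed to 1046 to 1398 TPM in WT ovaries, to 2795 TPM in MP tumor 5 and to 22.97 TPM in MP tumor 7. Cd74 took 39.7% to 41.0% of that sum in the WT ovaries, 50.4% in MP tumor 5 and 6.30% in MP tumor 2. H2-DMa and H2-DMb1 took 12.0% and 15.7% in MP tumor 7, compared with at most 1.89% and 2.22% in the WT ovaries. These are shares of TPM within a library and were not tested.

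H2-Ab1 over the class I gene H2-K1 differed widely between tumors. In MP tumor 1 H2-Ab1 was 3.37 times H2-K1 and in MP tumor 6 it was 0.1097 times H2-K1, while the 3 WT ovaries lay between 0.313 and 0.590. MP tumors 5, 10 and 2 were also above the WT ovaries by this ratio, at 1.75, 2.28 and 0.944, and MP tumor 3 at 0.631.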
